A study of Caenorhabditis elegans with 2 samples.

Results

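The genes described here encode the small RNAs of spliced leader (SL) trans-splicing in Caenorhabditis elegans, and the measurement is whether regions precipitated with GFP-tagged SNPC-1.3 lay at them. All nuclear genes of the Ensembl WBcel235 annotation with a symbol starting sls-1, sls-2 or smy- were taken, which gave 42 of 46890 nuclear genes. They comprised 12 SL1 genes, 18 SL2 genes and 12 smY genes. In 40 of them the annotated class is snRNA, and smy-2 and smy-3 are annotated as snoRNA genes. Regions were assigned to a gene when their summit lay in it or within 250 bp of it.

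ChIP-seq, which sequences the DNA precipitated with a chromatin protein, was done on whole young adult hermaphrodites of strain YL485 in 2 biological replicates, which form a single group. The strain is a transgenic line that stably expresses F08F3.9 (snpc-1.3) with a C-terminal GFP-FLAG tag, and an anti-GFP antibody was used on sonicated chromatin. Both replicates carried the tag, and no untagged or mutant group was among the samples. Whole animals mix germline and somatic cells, the labels give the age as unknown, and the lists cannot say in which cells a region was bound.

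In C. elegans most pre-mRNAs receive their first bases from another RNA: a short leader is cut from an SL RNA and joined to the start of the message by the spliceosome. SL1 is used mainly at the first genes of transcription units and SL2 mainly at downstream genes of operons, and each SL RNA travels as a particle with Sm proteins. The smY RNAs are small nematode RNAs that also bind Sm proteins and are found with a protein of the SL particles. Genes for such RNAs are classically transcribed from short promoters with an upstream element bound by SNAPc, a complex that recruits RNA polymerase, and SNPC-1.3 is a relative of one of its subunits known for its role in piRNA transcription in the male germline.

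The 3 kinds of RNA are shown by 1 gene each, since the leader and the Sm-type site are what define them. Sequences are from the RefSeq genome of WBcel235 (ce11), on the strand of the gene, with T for U. Capitals mark the leader in the SL genes, and in smy-3 the letters AATTTTTG, which resemble an Sm site.
sls-1.10 (chrV:17118154-17118251, plus strand): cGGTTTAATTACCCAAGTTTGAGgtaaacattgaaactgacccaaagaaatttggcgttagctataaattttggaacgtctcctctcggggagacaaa
sls-2.8 (chrIII:12250465-12250575, plus strand): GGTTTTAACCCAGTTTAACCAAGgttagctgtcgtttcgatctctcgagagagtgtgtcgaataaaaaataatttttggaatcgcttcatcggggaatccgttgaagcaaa
smy-3 (chrV:14092572-14092651, plus strand): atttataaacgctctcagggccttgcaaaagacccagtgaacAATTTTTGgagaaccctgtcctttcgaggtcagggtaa

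The letters AATTTTTG were in 13 of 18 SL2 genes and in 11 of 12 smY genes, and smy-6 was the smY gene without them. No SL1 gene held them; all 12 SL1 genes held ATTTTGG. The SL2 genes were 107 to 114 bp long and had 18 distinct sequences, with a median identity of 75.5% between pairs. The smY genes were 72 to 90 bp long, also all distinct, with a median identity of 71.9%. The SL1 genes had 2 sequences: 10 loci were identical copies of sls-1.10, and 2 loci named sls-1.1 were 68 bp long and lacked the leader. The SL2-type leaders fell into 11 distinct sequences of 21 to 23 bases, most of which are given to show how little they differ.
sls-2.8 leader: ggttttaacccagtttaaccaag
sls-2.14 leader: ggtttttacccagttaaccaag
sls-2.15 leader: ggtttatacccagttaaccaag
sls-2.16 leader: ggttttaacccaagttaaccaag
sls-2.17 leader: ggttttaaccagttaactaag
sls-2.18 leader: ggttttaacccatataaccaag
sls-2.12 and sls-2.13 leader: ggttttaacccagttaattgag
sls-2.10 and sls-2.11 leader: ggtttaaaacccagttaccaag

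The deposited lists were 30000 candidate regions from each replicate, 30000 from both replicates pooled, and 1676 regions kept by the irreproducible discovery rate (IDR) procedure, which compares the order of regions in the replicate lists. Each region has a signal value from the authors' peak caller, whose scale differs between lists, and ranks given here run from 1 for the highest signal in a list, mitochondrial regions included. The IDR peaks were the 1676 pooled regions of highest signal, or 5.59% of the pooled list. The median signal of the IDR list was 57.8, its lowest value was 39.8 and its highest 7841; outside the mitochondrial genome no region exceeded 410.5. No source used here gives the read depth.

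An IDR peak lay at 20 of the 42 genes. Of all pooled regions 5.59% were IDR peaks, which is a share of regions and not of genes. Shares of other genes under the same rule are given below. SL2 genes had one at 14 of 18 loci (77.8%, Clopper-Pearson 95% interval 52.4 to 93.6%). The smY genes had one at 6 of 12 loci (50%, 21.1 to 78.9%). None lay at the 12 SL1 loci. No interval is given for them, because they are near-identical copies with almost no unique sequence and the count cannot bound their share. Among the 89 other nuclear snRNA genes 28 had an IDR peak under the same rule (31.5%), and among 9089 other short non-coding genes, without piRNA genes and pseudogenes, the share was 9.53%. The intervals cover counting error only, and loci are not replicates of a condition.

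The share of SL2 genes with a peak was higher than that of smY genes, but the difference did not pass the test. The odds ratio was 3.5 (95% interval 0.717 to 17.1, 2-sided Fisher's exact test over 18 and 12 loci, p = 0.139). The test counts loci as independent, although several lie in clusters and smy-1 and smy-2 share a peak. Its p-value and interval therefore measure no variation between replicates. Over all candidate regions, whatever their rank, the shares were closer: a pooled region lay at 17 SL2 and 10 smY genes, and at 57.3% of the other snRNA genes. In the replicate 1 list a region lay at 16 SL2 and 9 smY genes (59.6% of the other snRNA genes), and in the replicate 2 list at 15 SL2 and 11 smY genes (52.8%). No list had a region at 14 of the genes, namely the 12 SL1 loci, sls-2.12 and smy-4.

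**Figure D1:**
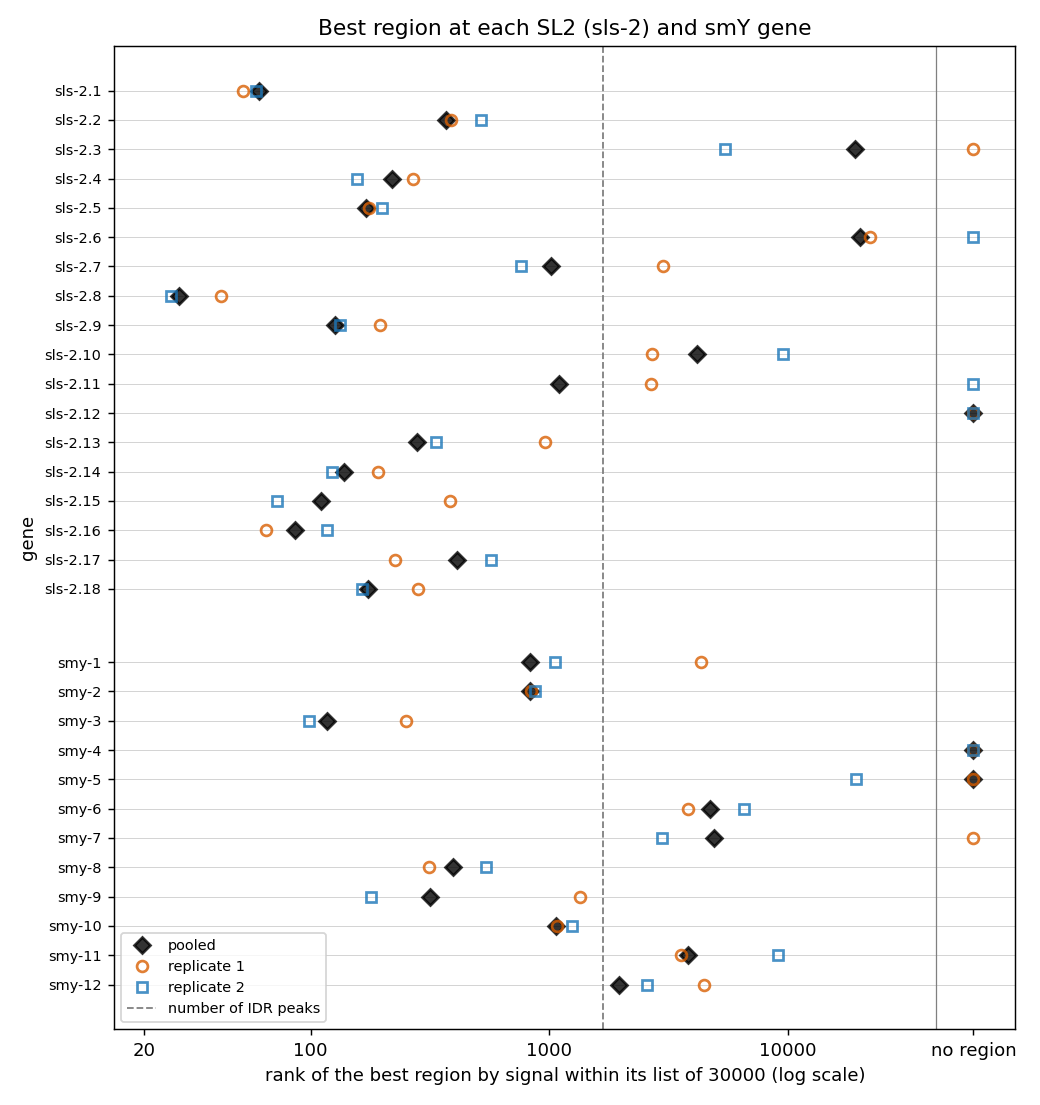
Rank of the best region at each SL2 and smY gene (x axis, log scale, rank 1 is the highest signal) in the pooled, replicate 1 and replicate 2 lists of 30000 regions, with genes without a region at the far right and the dashed line at rank 1676, the number of IDR peaks. Pooled ranks begin at 28 for SL2 and at 117 for smY genes; the pooled region of smy-1 is the one it shares with smy-2.

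The SL2 gene with the highest signal was sls-2.8, between protein-coding genes on chromosome III. Its signal was 264.7 in the pooled list (rank 28), 74.7 in replicate 1 (rank 42) and 197.3 in replicate 2 (rank 26). The next was sls-2.1 on chromosome II, with 160.9 pooled (rank 61), 62.9 in replicate 1 (rank 52) and 112.6 in replicate 2 (rank 59). These loci stood within the top 61 regions of every list. The gene sls-2.1 had a further IDR peak, of signal 67.8 and rank 601, with its summit 130 bp downstream of the 5′ end.

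Other SL2 genes lie in groups inside introns of protein-coding genes, where both strands are used. In introns of glr-2, a glutamate receptor gene, sls-2.5, sls-2.16 and sls-2.18 lie within 1951 bp. Signal at sls-2.16 was 138.4 in the pooled list (rank 86), 55.2 in replicate 1 and 85.4 in replicate 2. At sls-2.5 it was 110.5 (rank 170), 39.1 and 71.0 in the same lists. At sls-2.18 it was 109.9 (rank 174), 32.8 and 75.3. Each of these neighbours had its own IDR peak. The genes sls-2.14 and sls-2.15 lie within 710 bp in an intron of W09D6.5, on opposite strands. The signal at sls-2.15 was 126.6 pooled (rank 111), 29.0 in replicate 1 and 103.3 in replicate 2, and at sls-2.14 it was 116.3 (rank 138), 38.1 and 83.2. Replicate ranks moved more at sls-2.15, from 384 in replicate 1 to 72 in replicate 2, than at sls-2.14, from 192 to 123.

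The remaining SL2 genes with an IDR peak spanned a wider range. On chromosome I, sls-2.9 had a signal of 120.4 pooled (rank 126), 37.7 in replicate 1 and 81.1 in replicate 2, and a tRNA gene also lay within 250 bp of its summit. The signal at sls-2.4 was 98.9 pooled (rank 220), 33.5 and 76.1. Neither ranked lower than 268 in a replicate list. At sls-2.13 the signal was 90.5 pooled (rank 280), 20.1 in replicate 1 and 58.2 in replicate 2. At sls-2.2 it was 83.1 (rank 370), 28.9 and 50.3, and at sls-2.17 it was 79.4 (rank 410), 36.7 and 48.3. The leader of sls-2.17, shown above, is among the shortest, with 21 bases. The gene sls-2.7 was lower, with 52.7 pooled (rank 1015), 12.1 in replicate 1 (rank 3013) and 42.3 in replicate 2 (rank 761). These replicate regions were at different places, with summits 163 bp downstream of the 5′ end in replicate 1 and 49 bp upstream in replicate 2. The replicate 1 region nearest the 5′ end, with its summit 71 bp upstream, had a signal of 10.6 (rank 4256). Either way the replicates fell on opposite sides of rank 1676.

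At sls-2.11, in an intron of daf-10 on the opposite strand, the pooled signal was 49.8 (rank 1102) and the replicate 1 signal 12.6 (rank 2672). The replicate 2 list held no region there, and its closest summit was 5639 bp away. This locus therefore entered the IDR list with a region in the pooled list and in 1 replicate list. Its gene sequence is 99.1% identical to that of sls-2.10, which lies on the opposite strand within the same 9803 bp and had no IDR peak. The 2 loci share a leader, and 85.8% of the 31-base words in the window of each occur once in the genome.

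Among the 4 SL2 genes without an IDR peak, sls-2.10 came closest. Its best pooled region had a signal of 23.9 (rank 4172), with its summit 298 bp downstream of the 5′ end, and its replicate values were 12.6 (rank 2709) and 12.8 (rank 9524) with summits 34 and 63 bp upstream. At sls-2.3 the pooled signal was 11.9 (rank 19144) and the replicate 2 signal 16.1 (rank 5442), with no region in replicate 1. At sls-2.6 the pooled signal was 11.7 (rank 20016) and the replicate 1 signal 5.2 (rank 22171), with no region in replicate 2. The median signal of each whole list was 13.5 in the pooled list, 6.3 in replicate 1 and 10.4 in replicate 2, so sls-2.3 and sls-2.6 were below the pooled median. The pooled region of sls-2.6 was the one nearest the window's edge, with its summit 240 bp past the gene. Just outside the window, the closest replicate 1 summit to sls-2.3 was 253 bp from the gene and the closest replicate 2 summit to sls-2.6 was 268 bp away. No region of any list was assigned to sls-2.12, where the closest pooled summit was 885 bp away.

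The smY genes with the highest signals came from separate clusters. In the cluster on chromosome V, smy-3 had a signal of 124.6 pooled (rank 117), 34.2 in replicate 1 (rank 252) and 90.0 in replicate 2 (rank 98). The cluster of smy-8, smy-9 and smy-10 lies within 1432 bp on chromosome IV. There the signal at smy-9 was 86.9 pooled (rank 317), 17.2 in replicate 1 (rank 1350) and 73.5 in replicate 2 (rank 179). At smy-8 it was 80.6 (rank 395), 31.3 (rank 313) and 49.3 (rank 544), and at smy-10 it was 51.3 (rank 1063), 19.0 (rank 1082) and 33.0 (rank 1248). All 3 neighbours had an IDR peak.

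The genes smy-1 and smy-2 lie within 445 bp in an intron of C33A12.3 and shared a peak of signal 58.1 (rank 833). Its summit was 71 bp upstream of smy-2 and 226 bp past the 3′ side of smy-1, inside the 250 bp window. The gene smy-1 had a peak of its own, with a signal of 44.6 (rank 1349) and its summit 46 bp upstream. In the replicate lists the signal at smy-2 was 21.4 (rank 835) and 39.4 (rank 870), and at smy-1 it was 10.5 (rank 4313) and 35.6 (rank 1056). Thus 21 distinct IDR peaks served the 20 genes.

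Of the 6 smY genes without an IDR peak, smy-12 stood just outside, with a signal of 36.3 pooled (rank 1953), 10.4 in replicate 1 (rank 4443) and 22.7 in replicate 2 (rank 2567). Its neighbour smy-11 had 25.0 pooled (rank 3810), 11.3 in replicate 1 and 13.0 in replicate 2. At smy-6 the values were 22.6 (rank 4703), 11.0 and 14.9. These 3 genes had a region in each list, all of them below rank 1676. The gene smy-7 had a pooled region at rank 4884 and a replicate 2 region at rank 2969, with none in replicate 1. At smy-5 the replicate 2 list had a region at rank 19233, and the other lists had none. No list had a region at smy-4, where the closest replicate 2 summit was 437 bp away. The smY genes near smy-3, namely smy-4, smy-5 and smy-6, lie within the same 4946 bp and had no IDR peak.

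Across the 20 genes with an IDR peak, 17 had a signal above the median of all IDR peaks, 12 of them SL2 genes and 5 smY genes; with smy-1 scored by its own peak of 44.6 instead of the shared one, 16 genes did, 4 of them smY. The SL2 values had a median of 110.2 (49.8 to 264.7) and a median rank of 172. The smY values had a median of 69.35 (51.3 to 124.6, or from 44.6 with the own peak of smy-1) and a median rank of 614. These ranges overlap, and the 28 other snRNA genes with a peak had a median of 74.5 (41.3 to 157.7). Wherever in the window its summit was, a region lay in both replicate lists at 19 of the 20 genes, sls-2.11 being the exception. By their best regions, 17 of the genes were among the 1676 highest of both lists (5.59% of each list). These genes were picked by an IDR peak from the same replicates, so high replicate ranks follow in part from that choice. The share over all IDR peaks was not computed. The replicate 1 rank was the better one at 8 of these genes and the replicate 2 rank at 11.

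The summits lay close before the 5′ ends. For the best IDR peak of each SL2 gene the median position was 55.5 bp upstream, from 72 to 7 bp, and all 14 summits were upstream. For the smY genes the median was 33.5 bp upstream, with 5 of 6 summits upstream and the shared peak 302 bp downstream of the 5′ end of smy-1. When the peak nearest the 5′ end was taken instead, all 6 smY summits were upstream, from 71 to 23 bp, with a median of 38 bp. Among the 28 other snRNA genes with a peak the median was 23 bp upstream, from 56 bp upstream to 111 bp downstream, and 19 were upstream. Replicate summits did not always share this place: at sls-2.2, with its IDR summit 22 bp upstream, the replicate summits were 99 and 146 bp downstream. In the whole pooled list 99.3% of regions had their summit at the centre, against 13 of the 21 IDR peaks at these genes. The other 8 were narrower, from 92 to 182 bp wide, with summits off the centre, and ranked from 28 to 410 in the pooled list. The share among other IDR peaks of such ranks was not computed, so this trait cannot be called particular to these genes.

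**Figure D2:**
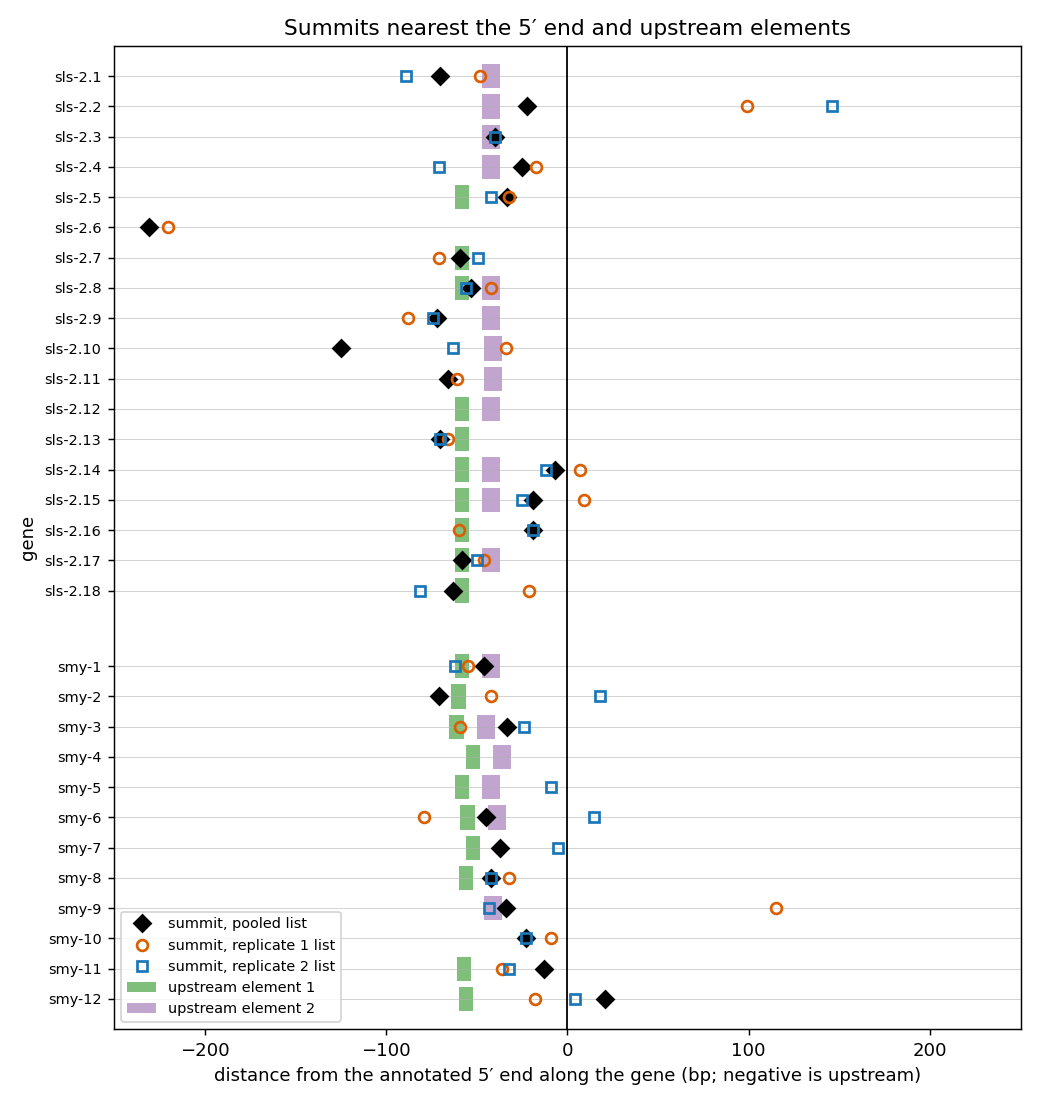
Distance from the annotated 5′ end of each SL2 and smY gene (bp, negative upstream) to the nearest region summit in the pooled list and in each replicate list, with green and purple bars over the upstream patterns CGNAACCC (element 1) and GTNNGNNCAC (element 2). Pooled summits of genes with an IDR peak fall 72 to 7 bp upstream, over the bars at some genes and to either side at others. No bar is drawn for smy-10, which has an IDR peak. The replicate summits of sls-2.2 lie 99 and 146 bp downstream.

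Since a sequenced fragment has no gene strand, other features near the same summits bear on the assignment. Of the 21 distinct IDR peaks, 17 had no protein-coding 5′ end within 500 bp. The summit of sls-2.7 was 86 bp upstream of the 5′ end of W06D4.3, and that of sls-2.8 was 248 bp upstream of both tim-1 and Y75B8A.23, which run in opposite directions. The summit of smy-3 was 253 bp upstream of D1086.3, and that of smy-9 was 451 bp upstream of Y45F10B.59. In each case the summit was closer to the SL2 or smY gene. Annotated piRNA genes lay within 250 bp of 3 of the 21 summits: 3 piRNA genes at smy-8, 1 at smy-10 and 1 at sls-2.11. Genes annotated as ncRNA lay within that distance of 6 summits, those of sls-2.2, sls-2.4, sls-2.8, sls-2.9, sls-2.16 and sls-2.18. The part of these neighbours in the signal was not tested. Introns of protein-coding genes held 14 of the 42 genes, of which 8 had an IDR peak: 6 of 7 SL2 genes and 2 of 7 smY genes.

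The bases before the 5′ ends hold letters that recur close to the summits in many SL2 and smY genes. Their places are nearly fixed in the SL2 genes and vary more in the smY genes. Patterns were composed after looking at these sequences, so their counts describe the members and are not tests. The first is the letters shared by sls-2.8 and sls-2.17 and the second those shared by sls-2.1, sls-2.8, sls-2.14 and smy-5, with N for any base. The 100 bases before each 5′ end were read on the gene strand, with negative positions counted back from it. The pattern CGNAACCC was found in 10 of 18 SL2 genes, starting at position -62 each time, and in 10 of 12 smY genes, starting from -65 to -56. The pattern GTNNGNNCAC was found in 12 SL2 genes, at -47 or -46, and in 6 smY genes, from -50 to -41. The shorter AACCCG, which overlaps the first pattern, was in 10 SL2 and 7 smY genes. Where both were present, in 5 SL2 and 5 smY genes, 7 bases separated them in every case.

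The windows from position -90 to -21 are given for genes that differ in these patterns or in their signal, with both patterns in capitals. First are SL2 genes with both patterns, of which sls-2.8 had the highest signal, sls-2.14 and sls-2.17 had IDR peaks, and sls-2.12 had no region.
sls-2.8 (chrIII:12250375-12250444, plus strand): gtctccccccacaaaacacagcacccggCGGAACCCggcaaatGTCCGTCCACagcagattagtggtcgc
sls-2.14 (chrIII:11090544-11090613, minus strand): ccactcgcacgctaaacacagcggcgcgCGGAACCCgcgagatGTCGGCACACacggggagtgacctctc
sls-2.17 (chrIV:5317389-5317458, minus strand): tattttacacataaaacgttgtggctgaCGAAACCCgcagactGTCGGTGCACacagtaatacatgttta
sls-2.12 (chrIV:5261823-5261892, plus strand): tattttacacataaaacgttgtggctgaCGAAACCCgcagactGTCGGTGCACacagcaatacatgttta

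Next are SL2 genes with a single pattern. The genes sls-2.16 and sls-2.5 have the first, and sls-2.1, sls-2.3, sls-2.10 and sls-2.11 the second; sls-2.3 and sls-2.10 had no IDR peak.
sls-2.16 (chrIII:7141301-7141370, plus strand): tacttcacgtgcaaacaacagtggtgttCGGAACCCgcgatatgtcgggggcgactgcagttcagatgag
sls-2.5 (chrIII:7140574-7140643, minus strand): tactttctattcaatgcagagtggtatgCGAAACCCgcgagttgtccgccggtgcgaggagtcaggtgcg
sls-2.1 (chrII:5844775-5844844, plus strand): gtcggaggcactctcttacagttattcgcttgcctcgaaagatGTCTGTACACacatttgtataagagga
sls-2.3 (chrII:5544294-5544363, minus strand): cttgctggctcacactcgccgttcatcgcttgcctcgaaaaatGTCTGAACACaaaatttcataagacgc
sls-2.10 (chrIV:9130850-9130919, minus strand): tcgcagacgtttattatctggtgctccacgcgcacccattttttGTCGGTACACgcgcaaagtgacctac
sls-2.11 (chrIV:9140325-9140394, plus strand): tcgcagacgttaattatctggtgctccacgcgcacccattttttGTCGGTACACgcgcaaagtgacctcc

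The smY windows follow, with smy-3, smy-8 and smy-10 from genes with an IDR peak and smy-12 and smy-5 from genes without one, and then the SL1 window of sls-1.10, which holds neither pattern.
smy-3 (chrV:14092482-14092551, plus strand): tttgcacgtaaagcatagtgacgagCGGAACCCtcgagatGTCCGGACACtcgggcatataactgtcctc
smy-8 (chrIV:13600757-13600826, plus strand): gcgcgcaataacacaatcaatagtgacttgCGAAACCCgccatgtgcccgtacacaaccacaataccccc
smy-10 (chrIV:13601546-13601615, plus strand): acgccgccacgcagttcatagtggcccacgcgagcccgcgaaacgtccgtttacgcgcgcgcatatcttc
smy-12 (chrIV:14864654-14864723, plus strand): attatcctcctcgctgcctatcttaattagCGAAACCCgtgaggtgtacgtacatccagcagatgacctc
smy-5 (chrV:14096486-14096555, minus strand): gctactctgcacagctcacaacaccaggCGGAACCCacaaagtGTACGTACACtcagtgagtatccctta
sls-1.10 (chrV:17118064-17118133, plus strand): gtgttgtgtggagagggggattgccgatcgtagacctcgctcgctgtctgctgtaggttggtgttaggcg

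At least 1 of the patterns was in 17 of 18 SL2 genes, all 14 with an IDR peak among them, and sls-2.6 lacked both. It was in 11 of 12 smY genes, and smy-10, which has an IDR peak, lacked both. Among windows of the same length on the gene strand, CGNAACCC was in 0.22% of 19973 protein-coding genes and in 31.5% of the 89 other snRNA genes. GTNNGNNCAC was in 0.926% and 39.3% of them. Both together were in 1 protein-coding window (0.00501%) and in 12 windows of other snRNA genes (13.5%). AACCCG was in 0.886% and 30.3%. With either strand counted, CGNAACCC was in 0.335% and GTNNGNNCAC in 1.68% of protein-coding windows, and 7 smY windows held GTNNGNNCAC on the other strand. Of exact 8-base words, CGGAACCC and GCGGAACC were held by the most smY windows, 7 of 12 each, and AACCCGCG and ACCCGCGA by the most SL2 windows, 6 of 18 each; each was in at most 0.0451% of protein-coding windows. In the other snRNA genes the shares were 23.6% for each of the smY words, 5.62% for AACCCGCG and 6.74% for ACCCGCGA.

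On the gene strand the patterns did not separate genes with a peak from genes without one. CGNAACCC was in 9 of 14 SL2 genes with an IDR peak and in 1 of 4 without, and in 4 of 6 smY genes with one and all 6 without. GTNNGNNCAC was in 9 of 14 and 3 of 4 SL2 genes, and in 3 of 6 smY genes of either kind. On the other strand, GTNNGNNCAC was in 1 of 6 smY genes with an IDR peak and in all 6 without, and in no SL2 gene. That difference was not tested. The near-identical windows of sls-2.17 and sls-2.12, 96.0% identical over 100 bases, belong to a gene with an IDR peak and to a gene with no region. A match is a description of letters, and none of these windows was tested for binding of any factor.

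Read from the summits, the first pattern was within 100 bp of 13 of the 21 IDR peaks at these genes, on either strand. It was within that distance of 65 of 1629 other nuclear IDR peaks (3.99%) and of 304 of 28311 other nuclear candidates (1.07%). Both patterns on 1 strand were near 6 of the 21 peaks, near 9 of the other IDR peaks (0.552%) and near 4 of the other candidates (0.0141%). The patterns were composed from genes of this set, so the higher shares at its peaks follow in part from that choice. Peaks at other snRNA genes are among the other IDR peaks and were not counted apart. In the 13 genes with an IDR peak and CGNAACCC before the gene, the summit was at a median of 16 bp downstream of its first base, from 8 bp before to 55 bp after it.

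As annotated in the reference genome, the SL1 genes form an array of 13954 bp on chromosome V, from 17118154 to 17132107, among 13 rRNA genes. The number of copies in the animals used was not measured. No IDR, pooled or replicate 2 summit fell inside the array. The replicate 1 list had 1 region in it, at rank 28107 with a signal of 4.43, and its summit was 995 bp from the nearest SL1 gene. The closest pooled summit to any SL1 gene was 26836 bp away and the closest IDR summit 152298 bp away. None of the 31-base words in the SL1 genes occurred once in the genome, and in the windows around them the share was 0 to 20.4% with a median of 0. No source used here says how reads of these copies were placed, and its part in the missing regions was not tested.

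For SL2 genes the share of unique 31-base words in the window was 56.2 to 100% with a median of 90.2%, and for smY genes 92.5 to 100% with a median of 100%. All 20 genes with an IDR peak had a share of at least 80%. The SL2 gene below 80% was sls-2.12, with 56.2% in the window and 21.2% in the gene, and it had no region. The SL2 genes with a peak were at 83.2 to 100%, and those without one were at 56.2 to 98.5%. The smY genes with a peak were all at 100%, and those without one were at 92.5 to 100%. The part of repeated sequence in the missing peaks was not tested. The pair sls-2.6 and sls-2.7 was 88.6% identical in the gene but 57.0% over the 100 bases before it; sls-2.7 had an IDR peak and sls-2.6 had none.

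**Figure D3:**
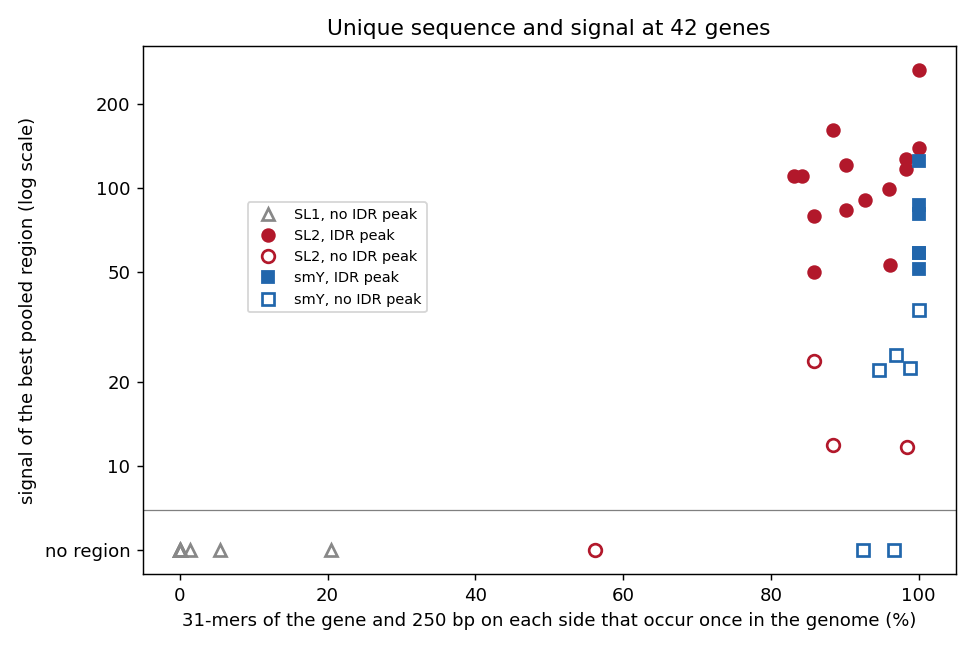
Share of 31-base words in the gene and 250 bp on each side that occur once in the genome (percent) against the signal of the best pooled region (log axis, authors' caller), for SL1, SL2 and smY genes, with genes without a pooled region drawn apart. All SL1 genes sit at or below 20.4% with no region, while the SL2 and smY genes with an IDR peak sit at 80% or above. Genes without an IDR peak span 56.2 to 98.5% for SL2 and 92.5 to 100% for smY.

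Every SL2-type leader had at least 1 gene with an IDR peak. The leader shared by sls-2.1, sls-2.2, sls-2.3 and sls-2.4 had peaks at 3 of its 4 genes, and that of sls-2.5, sls-2.6 and sls-2.7 at 2 of 3. The pairs sls-2.10 and sls-2.11, and sls-2.12 and sls-2.13, had a peak at 1 gene each. The 7 leaders found at a single gene all had one. The SL1 leader, encoded at 10 loci, had none.

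Protein genes of trans-splicing and of the Sm core, 12 in all, were set beside the RNA genes, and an IDR summit lay within 500 bp of the 5′ end at 6 of 12, against 5.94% of all protein-coding genes. The list was put together with earlier results known, so its share is a description only. It was not tested against the share of all protein-coding genes, which counts every annotated nuclear one. The genes with a peak were sna-3, a gene named with the SL particle proteins, and the Sm protein genes snr-1, snr-2, snr-3, snr-4 and snr-6. Signal was highest at snr-4, with 131.2 in the IDR list (rank 102), and the same summit lay at the snRNA gene T11F9.15. The others ranged from 41.1 at snr-6 to 61.9 at sna-3. Their summits were 238 to 388 bp upstream of the annotated 5′ ends. Protein-coding genes were searched to 500 bp and SL2 genes to 250 bp, so these distances are not directly comparable with those of the SL2 peaks. No IDR peak lay at sna-1 or sna-2, whose products are components of the SL particles, at sut-1, at tgs-1, which encodes a cap trimethylating enzyme, or at snr-5 and snr-7.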

How the data were processed

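The authors deposited peak lists on ce10 and ce11; the 4 ce10 lists were not used. Per the deposited text notes, each replicate list was called from that replicate against 1 control, the pooled list from both replicates against the same control, and the IDR list from these. Each deposited region has a signal value from the authors' caller and a −log10 q-value; signal was used within a list only. No source used here gives the aligner, caller, thresholds or read depth, so precision rests on numbers of loci. Of the pooled regions, 99.3% were 276 bp wide and 99.3% had their summit at the centre.

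Genes were taken from Ensembl release 115 and sequences from RefSeq, both of WBcel235. For each gene and list the region of highest signal with its summit in the gene or within 250 bp was kept, and distances run along the gene strand. Uniqueness is the share of 31-base words found once in the genome on either strand. Shares of SL2 and smY genes have Clopper-Pearson 95% intervals. SL2 was compared with smY by Fisher's exact test at 0.05, with a Woolf interval. Protein-coding promoters reached 500 bp from the 5′ end. The patterns CGNAACCC, GTNNGNNCAC and AACCCG were composed after looking at the sequences; only the first and the last overlap. Values in every list are printed for genes with an IDR peak and, of each kind, for the 3 others of highest pooled signal.

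The members, lists and tests were chosen with earlier results of these data known. Gene assignment was tested on simulated summits. Python 3.11.15, pandas 2.3.3, numpy 2.4.6, scipy 1.17.1 and matplotlib 3.10.9 were used. Alternatives were windows of 125 and 500 bp, any overlap, the 838 IDR peaks of highest signal and each replicate alone. For a replicate alone, its 1676 regions of highest signal stood in for the IDR peaks. Chosen after seeing the data were giving each peak to its nearest gene, taking the peak nearest the 5′ end, and keeping genes with at least 80% unique words.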

Additional observations from a re-analysis of the deposited data

How the results depend on the processing

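Counts of genes with an IDR peak stayed within 1.5 times the reported ones under every alternative run: 12 to 14 SL2 genes, 5 or 6 smY genes and 0 SL1 genes. The odds ratio of SL2 against smY ran from 2.6 to 4.67 and never passed Fisher's exact test (p from 0.106 to 0.266); without each replicate in turn it was 2.6 to 2.8.

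The median summit position moved more. For SL2 genes it was -55.5 bp, and -43.0 bp with the 838 IDR peaks of highest signal; without each replicate in turn it ran from -50.0 to -37.0 bp. For smY genes it was -33.5 bp, and -38.0 bp both with the smaller window and with the peak nearest the 5′ end, since these drop the shared peak of smy-1; without each replicate in turn it ran from -33.0 to -32.0 bp. All stayed upstream.

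No paired analysis was possible because the samples form 1 group. Read depth is unknown, so a gene without a region may lie below what these lists can show. With 18 and 12 loci the test can show large differences only, and 12 SL1 loci with almost no unique sequence carry little information on binding there.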
